A study of Mus musculus with 10 samples.

Results

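The mitotic deacetylase complex (MiDAC) is a histone deacetylase complex built from the scaffold DNTTIP1, a second scaffold of the ELM2-SANT type and the catalytic subunit HDAC1 or HDAC2. The RNA of 6 genes was followed, of 34591 in the deposited table: *Dnttip1*, *Elmsan1* (listed there under its older name *C130039O16Rik*), the *Elmsan1* paralogues *Trerf1* and *Zfp541*, and the paralogous deacetylase genes *Hdac1* and *Hdac2*. They were picked by gene symbol, with earlier results of these data known, and all 6 symbols were found. The question was how much transcript of the targeted gene remained in each knockout (KO) clone, and whether RNA of the other subunits and paralogues differed from wild-type (WT).

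RNA-seq of mouse embryonic stem cells (mESCs) covered 10 libraries of total RNA, 2 from each of 5 lines. WT were male C57/BL6 Bruce-4 mESCs. Editing of these cells by CRISPR/Cas9, with 1 guide RNA per gene, and outgrowth from single sorted cells gave D2A7 and D1E6, edited in *Dnttip1*, as well as E2E8 and E2G7, edited in *Elmsan1*. All lines were kept in 2iL medium, which holds LIF and the inhibitors CHIR 99021 and PD 0325901, and the labels give no treatment by which the lines differ. The 4 libraries of a knockout come from 2 clones and are not 4 independent knockouts, and a difference between 2 clones of the same knockout cannot be told apart from differences between single cells that existed before editing. No unedited clone grown from a single cell is labelled among the 10 libraries. A difference from WT, also one shared by all 4 clones, therefore cannot be told apart from effects of cloning. Duplicate libraries measure only the spread within a line.

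In MiDAC, DNTTIP1 dimerizes and holds the complex together, and the ELM2-SANT domain of ELMSAN1, TRERF1 or ZFP541 binds and activates the deacetylase. ELM2-SANT proteins of other complexes, such as the MTA proteins of NuRD, the RCOR proteins of CoREST and the MIER proteins, recruit HDAC1 and HDAC2 in the same way. ZFP541 is known from spermatocytes, where it works with KCTD19, and TRERF1 was described as a regulator of steroidogenic genes.

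The 2 guide RNA targets are shown because they set where in each transcript the reading frame was broken, while the transcript itself could still be made. The reference sequence (NCBIM37, the build the reads were aligned to) is given on the strand of the gene, with the bases matched by the guide in capitals. For *Dnttip1* it is the whole of exon 2 of 13 in transcript Dnttip1-001 (GENCODE vM1), chr2:164572207-164572277 on the + strand, and for *Elmsan1* a window within exon 3 of 13 in transcript C130039O16Rik-001, chr12:85512572-85512671 on the - strand.
Dnttip1 exon 2: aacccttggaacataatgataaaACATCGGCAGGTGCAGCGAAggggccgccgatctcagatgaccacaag
Elmsan1 exon 3, part: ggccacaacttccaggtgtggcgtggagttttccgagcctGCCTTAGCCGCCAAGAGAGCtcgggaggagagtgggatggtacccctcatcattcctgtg
Both targets lie in coding exons. The study numbers the targeted exon of *Elmsan1* differently from this transcript, and its drawing may place the target a few bases away, so the positions given here hold for the guide as listed. The expected cleavage falls in codon 49 of *Dnttip1*, after 14.7% of its 987 coding bases, and in codon 502 of *Elmsan1*, after 46.1% of its 3270 coding bases. As a calculation on the reference, not a reading of the clones, loss of 1 base at the cut would bring a stop at codon 56 of *Dnttip1*, still in exon 2, and loss of 2 bases a stop at codon 76 in exon 3. For *Elmsan1* the same losses would bring stops at codons 503 and 531, both in exon 3. These stops would lie 679 and 618 bases (*Dnttip1*) and 1600 and 1515 bases (*Elmsan1*) before the last exon junction of the mRNA. As background, mRNAs with a stop far before the last exon junction are common substrates of nonsense-mediated decay. Whether it acted on these transcripts was not tested.

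Values are FPKM, fragment counts scaled to exon length and library size, so levels of different genes can be set side by side. The libraries held between 31098268 and 86463798 fragments, and the members drew from 0 to 18213 of them. In WT mESCs *Hdac2* was the most abundant of the 6 as counted, at 55.5 ± 0.622 FPKM (SD, n = 2), followed by *Hdac1* at 42.6 ± 2.11, *Dnttip1* at 8.29 ± 0.193, *Elmsan1* at 5.46 ± 0.0979 and *Trerf1* at 0.504 ± 0.0828. Some *Hdac1* reads may be counted to another gene, *Gm10093* (described below), so the order of *Hdac2* and *Hdac1* holds only for reads as counted. *Zfp541* was at 0.00289 ± 0.00409 FPKM. The cells carried the RNA of mESCs. All 8 stem cell markers examined were present in every library, among them *Pou5f1* at 240.4 FPKM or more, while the summed FPKM of 8 fibroblast markers was between 0.201 and 0.263 in WT and between 0.199 and 0.928 in KO libraries. Of the neural markers, *Pax6*, *Sox1* and *Neurog2* stayed at or under 0.866 FPKM, and *Map2* was not found under that symbol. *Tubb3*, a neuronal tubulin, was between 53.9 and 57.9 FPKM in WT and between 44.3 and 87.2 in KO libraries. RNA of all 8 germ cell markers examined was detected in every library. *Dazl* was between 4.30 and 4.89 FPKM in WT and between 2.79 and 9.58 in KO libraries. *Ddx4* was between 2.26 and 2.64 in WT and between 1.75 and 2.86 in KO libraries. *Sycp3* was between 1.19 and 1.25 in WT and between 0.863 and 2.34 in KO libraries. In bulk RNA, fewer cells of a type and less RNA per cell cannot be told apart. Relative to WT, the median log2 fold change of chromosome 8 genes was between 0.35 and 0.37 in the 4 clones. No member lies on chromosome 8 or 6, and on the members' own chromosomes (2, 4, 7, 10, 12 and 17) the medians were between -0.07 and 0.04.

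**Figure D1:**
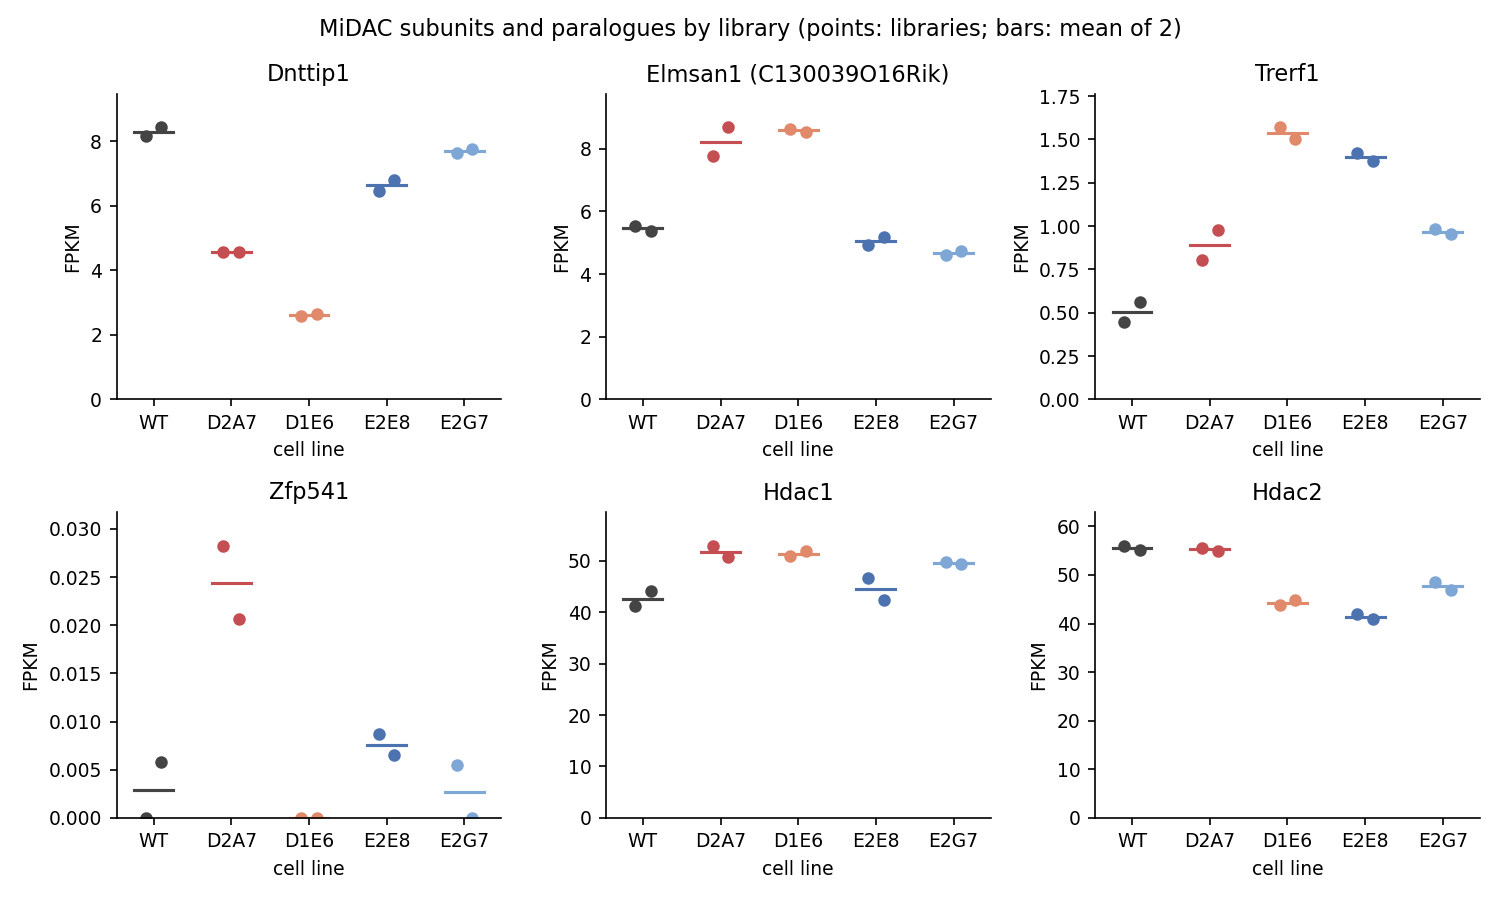
FPKM of the 6 genes in each of the 10 libraries, by cell line (2 points per line; the bar is their mean; each panel has its own axis from 0). *Dnttip1* is lowest in D1E6 at 2.59 and 2.63 FPKM, *Elmsan1* is highest in D1E6 and D2A7, and *Trerf1* is lowest in WT.

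A gene is said to have risen, fallen or changed where its adjusted p in a limma test on log2(FPKM + 0.1), corrected over all genes tested, was under 0.05. In *Dnttip1* KO versus WT mESCs (4 libraries against 2) this held for 3 of the 5 members tested, beside 9.47% of all 17434 genes tested. Of the members, *Dnttip1* fell and *Elmsan1* and *Hdac1* rose. In *Elmsan1* KO versus WT it held for 1 of 5, *Trerf1*, which rose, beside 10.5% of 17212 genes. By the fold rule, a fold change of at least 1.5 with an unadjusted p under 0.01, *Dnttip1* and *Elmsan1* were called in *Dnttip1* KO, beside 6.51% of genes, and *Trerf1* in *Elmsan1* KO, beside 6.43%. Both knockouts were compared with the same WT libraries. When the correlation between libraries of the same clone was estimated and included in the fit, no member had an adjusted p under 0.05 in either knockout, and those p values stand beside each call below. By the fold rule, *Dnttip1* (unadjusted p = 0.00345 in limma) and *Elmsan1* (0.00458) were still called in that fit, and *Trerf1* (0.0133) was not. The *Elmsan1* call lay at the edge of 1.5-fold, with a log2 fold change of 0.589. It was under 1.5-fold with quantile normalization (0.562), with a pseudocount of 1 FPKM (0.521) and without some single libraries (down to 0.539). *Zfp541* was under the filter on low values in every comparison.

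Some stem cell markers had changed as well, beside 9.47% of all genes tested in *Dnttip1* KO and 10.5% in *Elmsan1* KO. Of the 8 listed, *Zfp42* had risen (0.50, limma adjusted p = 0.0386) and *Sox2* had fallen (-0.38, adjusted p = 0.0157) in *Dnttip1* KO. In *Elmsan1* KO, *Zfp42* had risen (0.36, adjusted p = 0.0263) and *Sox2* (-0.46, adjusted p = 0.00725), *Nanog* (-0.35, adjusted p = 0.0241) and *Klf4* (-0.38, adjusted p = 0.0428) had fallen. *Sox2*, a core pluripotency factor, was between 181 and 187 FPKM in WT and between 132 and 148 in KO libraries. *Tubb3* had risen in *Dnttip1* KO (0.46, adjusted p = 0.0482). With an estimated correlation within clones these adjusted p values were between 0.158 and 0.264. Of 7 germ cell markers tested in each knockout, 1 had fallen in *Elmsan1* KO and 0 had changed in *Dnttip1* KO. With the estimated correlation, the lowest limma adjusted p among the germ cell markers in *Elmsan1* KO was 0.264. These markers were named after their values were seen, and their part in the differences of the members was not tested.

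*Dnttip1* encodes the scaffold that was targeted in D2A7 and D1E6, and both clones kept part of its RNA. Its values were 8.15 and 8.43 FPKM in WT, 4.57 and 4.56 in D2A7, 2.59 and 2.63 in D1E6, 6.47 and 6.79 in E2E8, and 7.63 and 7.77 in E2G7. No libraries of different lines overlapped, and the order was WT, E2G7, E2E8, D2A7 and D1E6. After scaling, D2A7 kept 54.3% and D1E6 30.8% of the WT level, whereas E2E8 stood at 78.4% and E2G7 at 91.7%. Both *Dnttip1* KO clones together gave a log2 fold change of -1.26 from WT (standard error 0.285, limma adjusted p = 0.0471), which was larger in size than that of 97.0% of the genes tested. With an estimated correlation within clones the adjusted p was 0.133. The call also ended whichever single library was left out, with adjusted p between 0.0517 and 0.250, and without the filter (0.0642) or the variance trend (0.0665).

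Residual *Dnttip1* RNA was not the same in the 2 clones. D2A7 held 1.74-fold more of it than D1E6 (log2 fold change 0.80, standard error 0.0536, limma adjusted p = 0.000951), in a comparison where 40.8% of all genes tested had changed. Each clone differed from WT on its own, D2A7 by -0.87 (adjusted p = 0.00115) and D1E6 by -1.66 (adjusted p = 0.0013), beside 40% and 32.7% of genes called in those comparisons. In the *Elmsan1* KO clones, *Dnttip1* RNA was below both WT libraries in all 4 libraries, but the joint log2 fold change of -0.24 did not pass the test (95% interval -0.47 to -0.0015, limma adjusted p = 0.177). Taken alone, E2E8 was lower (-0.35, adjusted p = 0.00622, beside 46% of genes called) and E2G7 differed by -0.12 (adjusted p = 0.0693, beside 33.4%). E2E8 and E2G7 differed from each other by -0.22 (adjusted p = 0.0120, beside 50.7%), and this call ended without either E2G7 library (adjusted p up to 0.0658). An annotated antisense transcript, *Gm11457*, shares 227 bases with the exons of *Dnttip1* on the opposite strand. *Gm11457* was at 3.85 and 3.44 FPKM in WT, 6.97 and 7.42 in E2E8 and between 3.48 and 5.30 in the other KO libraries. The library kit keeps the strand, but whether the counting used it is not given in the sources used here, so reads of the 2 genes may not be separated in those 227 bases.

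The genes around *Dnttip1* did not fall with it. Among the 10 nearest genes whose mean reached 1 FPKM, the median log2 fold change in *Dnttip1* KO was 0.20, 3 had risen and 0 had fallen, beside 9.47% of all genes called. The 3 were *Sdc4* (0.71), a heparan sulfate proteoglycan, *Wfdc2* (0.61) and *Snx21* (0.61). In *Elmsan1* KO 2 of the 10 had risen, *Sdc4* (0.72) and *Wfdc2* (0.55), beside 10.5% of all genes called. The cause of these changes was not tested.

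*Elmsan1* encodes the ELM2-SANT scaffold targeted in E2E8 and E2G7. It was at 5.53 and 5.39 FPKM in WT, 4.92 and 5.18 in E2E8, and 4.62 and 4.75 in E2G7, against 7.79 and 8.68 in D2A7 and 8.65 and 8.55 in D1E6. The libraries of D2A7 and D1E6 overlapped with each other and lay above all others, and those of the edited clones E2E8 and E2G7 lay below WT. The edited clones thus kept 90.6% (E2E8) and 84.7% (E2G7) of the WT level, with a joint log2 fold change of -0.19 (95% interval -0.38 to 0.0049, limma adjusted p = 0.188). E2G7 alone fell by 0.23 on the log2 scale (adjusted p = 0.0391), and this call ended without either E2G7 library or WT replicate 1 (adjusted p up to 0.198), without the filter (0.0588) or the variance trend (0.0664), and with quantile normalization (0.0536). E2E8 alone differed by -0.14 (adjusted p = 0.133), but passed with quantile normalization (-0.22, adjusted p = 0.0418) and with voom on whole fragments (-0.14, adjusted p = 0.0498). The 2 clones differed from each other by 0.09 (95% interval -0.03 to 0.22, adjusted p = 0.171).

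In the *Dnttip1* KO clones, *Elmsan1* RNA was 1.504-fold that of WT (log2 fold change 0.59, standard error 0.0730, limma adjusted p = 0.00972), at 149% of WT in D2A7 and 154% in D1E6. Of the genes tested, 83.1% had a smaller change in size. The adjusted p was 0.147 with an estimated correlation within clones, 0.0896 without WT replicate 1 and 0.105 without WT replicate 2. Each clone alone had risen, D2A7 by 0.56 (adjusted p = 0.00701) and D1E6 by 0.62 (adjusted p = 0.00364). D2A7 and D1E6 did not differ detectably in *Elmsan1* (-0.05, 95% interval -0.22 to 0.11, adjusted p = 0.539), in contrast to their *Dnttip1* RNA. The study describes *Elmsan1* mRNA as unchanged in *Dnttip1* KO mESCs by qRT-PCR, and ELMSAN1 protein as severely reduced by western blot. Protein was not measured in the libraries used here. Of the 10 nearest genes to *Elmsan1*, 0 had risen and 1 had fallen in *Dnttip1* KO (*Acot1*, an acyl-CoA thioesterase, -1.09), with a median of -0.11. That count is near the 9.47% of all genes called and is no result about these neighbours.

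Set directly against each other, the knockouts differed in *Elmsan1*, which was higher in *Dnttip1* KO by 0.78 (standard error 0.0674, limma adjusted p = 0.0128). It was 1 of only 6 genes called among 17588, or 0.0341%. The call ended when any of 6 of the 8 libraries was left out on its own (adjusted p between 0.0528 and 0.0913), and the adjusted p was 1.00 with an estimated correlation within clones. *Dnttip1* differed by -1.03 in that comparison and did not pass (adjusted p = 0.251), and *Trerf1* by 0.0050 (95% interval -0.53 to 0.54).

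*Trerf1*, a paralogue of *Elmsan1*, was low in WT and higher in all 4 clones. It was at 0.446 and 0.563 FPKM in WT, 0.804 and 0.976 in D2A7, 1.57 and 1.504 in D1E6, 1.42 and 1.38 in E2E8, and 0.980 and 0.952 in E2G7. Every KO library lay above both WT libraries, and only the libraries of D2A7 and E2G7 overlapped. The WT values rest on 63 and 97 fragments, with 95% Poisson intervals of 48.4 to 80.6 and 78.7 to 118 that cover counting error only. *Trerf1* had risen in each clone taken alone. The log2 fold changes from WT were 0.70 in D2A7 (standard error 0.166, limma adjusted p = 0.0310), 1.42 in D1E6 (0.129, adjusted p = 0.00403), 1.29 in E2E8 (0.132, adjusted p = 0.00315) and 0.81 in E2G7 (0.130, adjusted p = 0.0140). With a pseudocount of 1 these were 0.32, 0.74, 0.66 and 0.38 in the same order, and all 4 passed. The call in D2A7 ended without either D2A7 library or WT replicate 1 (adjusted p up to 0.170), without the filter (0.0598) and with quantile normalization (0.0544), and that in E2G7 without either E2G7 library (adjusted p up to 0.107).

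Over both clones, *Trerf1* had risen in *Elmsan1* KO by 1.05 (standard error 0.212, limma adjusted p = 0.0299), more in size than 95.5% of genes tested. The size depends on the pseudocount, and was 0.52 with 1 FPKM and 1.17 with 0.01 FPKM in place of 0.1. The adjusted p was 0.239 with an estimated correlation within clones, 0.0718 with voom on whole fragments, 0.0518 without the filter, and between 0.0639 and 0.216 without either E2E8 library or either WT library. In *Dnttip1* KO the log2 fold change was of the same size, 1.06, and did not pass (standard error 0.288, adjusted p = 0.0752), with 0.53 at a pseudocount of 1. The clones of each knockout differed, in comparisons where 40.8% (D2A7 against D1E6) and 50.7% (E2E8 against E2G7) of all genes tested had changed. *Trerf1* was lower in D2A7 than in D1E6 (-0.72, adjusted p = 0.0108, and 0.0560 without D1E6 replicate 1) and higher in E2E8 than in E2G7 by 0.48 (adjusted p = 0.00808, and 0.24 with an adjusted p of 0.0638 after quantile normalization). *Trerf1* is on chromosome 17. The order of the clones by *Trerf1* was also their order by the median log2 fold change of chromosome 6 genes from WT, which was -0.08 in D2A7, 0.29 in E2G7, 0.39 in E2E8 and 0.42 in D1E6. Its part in the differences of *Trerf1* was not tested.

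*Zfp541*, the germ cell paralogue, was near or at the limit of detection throughout. No fragment was counted in D1E6 or WT replicate 1, 1 in WT replicate 2, 8 and 5 in the D2A7 libraries, 3 and 2 in E2E8, and 2 and 0 in E2G7. The highest value, in D2A7, was 0.0282 FPKM. In the D1E6 libraries a count of 0 allows up to 0.0136 and 0.0106 FPKM, the level of 3 fragments. Summed over libraries, D2A7 had 7.78 times the WT level, with a 95% counting interval from 1.17 to 331 because WT had 1 fragment. That interval leaves out the spread between libraries. Tested over libraries with no filter on low values, *Zfp541* passed in no comparison (limma adjusted p between 0.0840 and 0.988), and the adjusted p of D2A7 against WT was 0.152.

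The ELM2-SANT paralogues were also compared as shares of their summed FPKM, *Elmsan1*, *Trerf1* and *Zfp541* together. The sum was 5.97 and 5.96 FPKM in WT, 8.62 and 9.68 in D2A7, 10.2 and 10.1 in D1E6, 6.35 and 6.56 in E2E8, and 5.61 and 5.71 in E2G7. *Trerf1* made up 7.47% and 9.45% of it in WT, 9.33% and 10.1% in D2A7, 15.4% and 15.0% in D1E6, 22.4% and 21.0% in E2E8, and 17.5% and 16.7% in E2G7. Thus the share of *Trerf1* overlapped between WT and D2A7 and was above WT in the other 3 clones, and *Elmsan1* remained the more abundant of both in every library, by 3.46-fold or more. These are shares of RNA, not of protein, and are given without a test. For E2E8 and E2G7 they include RNA of the edited *Elmsan1* gene. The study reports complete loss of ELMSAN1 protein in its *Elmsan1* KO clones.

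**Figure D2:**
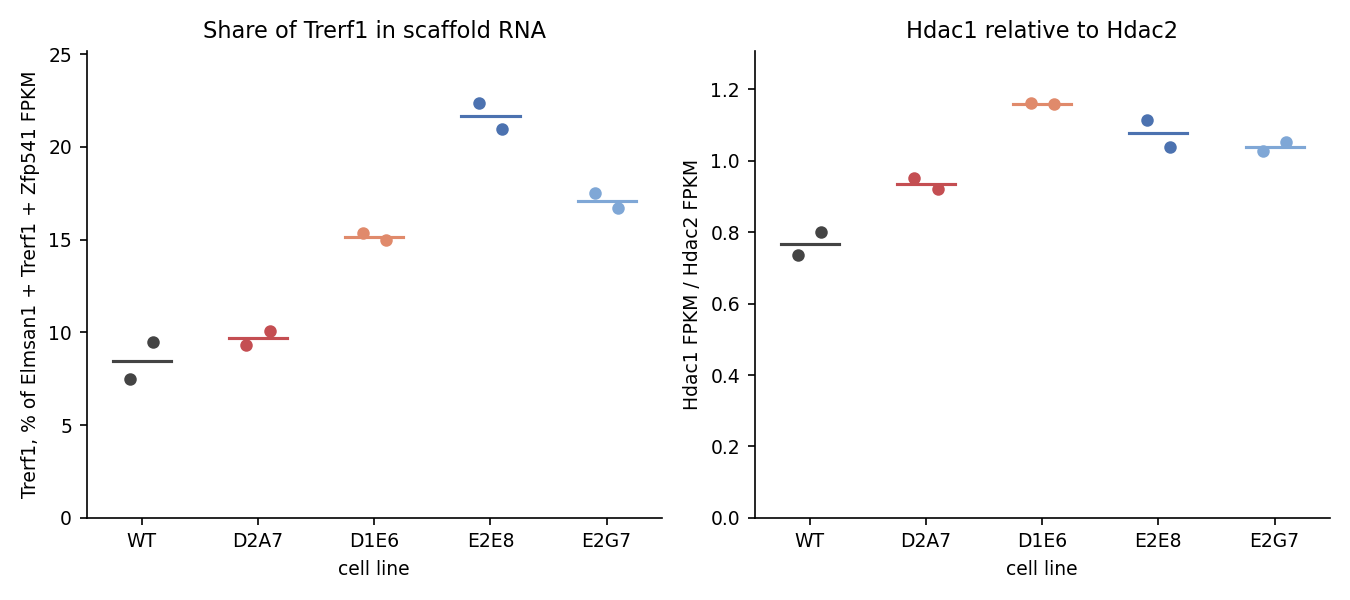
Left, *Trerf1* as a percentage of the summed FPKM of *Elmsan1*, *Trerf1* and *Zfp541* in each library; right, the ratio of *Hdac1* to *Hdac2* FPKM (2 points per line; the bar is their mean). The share of *Trerf1* is highest in E2E8 at 22.4% and 21.0%, and the ratio of *Hdac1* to *Hdac2* is lowest in WT at 0.735 and 0.801.

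*Hdac1* and *Hdac2* encode the class I deacetylases that serve MiDAC, NuRD, SIN3 and CoREST. *Hdac1* was at 41.2 and 44.1 FPKM in WT, 52.9 and 50.7 in D2A7, 50.9 and 51.9 in D1E6, 46.7 and 42.4 in E2E8, and 49.7 and 49.4 in E2G7. The libraries of E2E8 overlapped with WT, those of D2A7 and D1E6 with each other, and the other 3 clones lay above WT. *Hdac1* had risen in *Dnttip1* KO by 0.25 (standard error 0.0428, limma adjusted p = 0.0235), a small change, since 56.3% of genes tested moved less. The adjusted p was 0.254 with an estimated correlation within clones and lay between 0.0509 and 0.199 whichever single library was left out, and was 0.0680 without the variance trend. In *Elmsan1* KO the log2 fold change was 0.12 (95% interval -0.07 to 0.31, adjusted p = 0.380). The study describes *Hdac1* mRNA as unchanged in *Dnttip1* KO by qRT-PCR, and HDAC1 protein as not significantly affected. By clone, *Hdac1* had risen in D2A7 (0.26, adjusted p = 0.00938), D1E6 (0.24, adjusted p = 0.00791) and E2G7 (0.20, adjusted p = 0.0113), and E2E8 differed by 0.03 (adjusted p = 0.660). These calls ended without D2A7 replicate 1 (0.0511) and without either library of D1E6 (up to 0.0628) or E2G7 (up to 0.0891).

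A second locus bears on *Hdac1*. Of the 1989 distinct stretches of 50 bases in its annotated coding transcripts, 1441 occur unchanged in *Gm10093*, a single-exon gene on chromosome 17 (78890905 to 78892881, + strand), so the counting could split reads between the 2 genes. No stretch of that length was shared between another member and any other coding gene. *Gm10093* was at 28.0 FPKM in both WT libraries and between 27.3 and 33.5 in KO libraries. It held between 26.3% and 28.1% of the fragments counted to both genes in each of the 10 libraries. *Gm10093* had log2 fold changes of 0.19 in *Dnttip1* KO (adjusted p = 0.0588) and 0.07 in *Elmsan1* KO (adjusted p = 0.618). By clone, *Gm10093* had risen in D2A7 (0.21, limma adjusted p = 0.0228) and D1E6 (0.17, adjusted p = 0.0282), where *Hdac1* had also risen, and was at 0.15 in E2G7 (adjusted p = 0.0548) and -0.01 in E2E8 (adjusted p = 0.836).

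**Figure D3:**
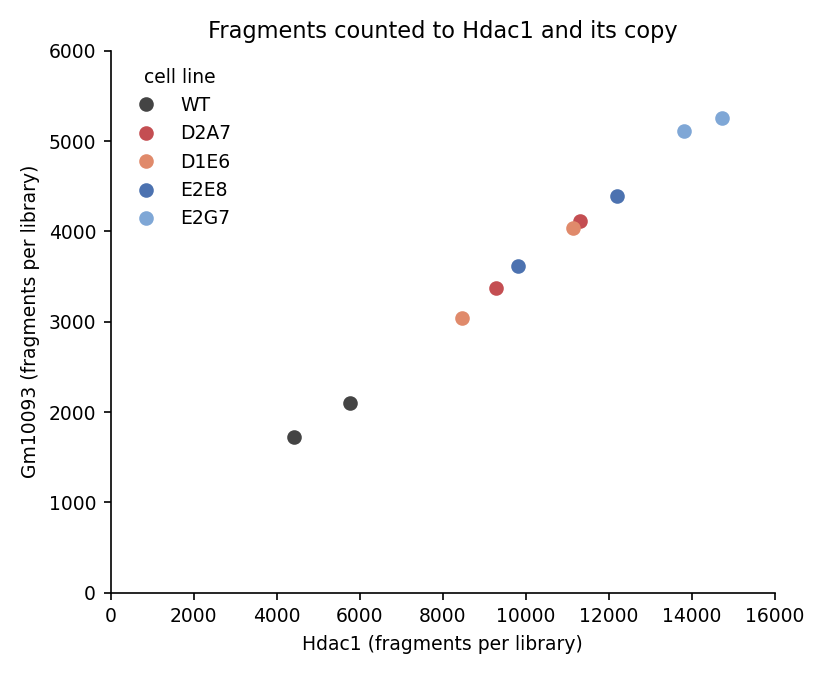
Fragments counted to *Gm10093* against fragments counted to *Hdac1* in each of the 10 libraries, coloured by cell line. The points lie along a single line, with *Gm10093* at 26.3% to 28.1% of both, from WT replicate 1 (4409 fragments of *Hdac1*) to E2G7 replicate 2 (14728).

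*Hdac2* was at 56.0 and 55.1 FPKM in WT, 55.6 and 55.0 in D2A7, 43.8 and 44.8 in D1E6, 41.9 and 40.9 in E2E8, and 48.5 and 47.0 in E2G7. WT and D2A7 overlapped, and D1E6, E2E8 and E2G7 lay below them without overlap between any of these 3. Relative to WT, *Hdac2* had fallen in D1E6 (-0.36, standard error 0.0405, limma adjusted p = 0.00636), E2E8 (-0.45, 0.0434, adjusted p = 0.00274) and E2G7 (-0.24, 0.0427, adjusted p = 0.0185), and D2A7 differed by -0.03 (95% interval -0.14 to 0.09, adjusted p = 0.645). The call in E2G7 ended without either E2G7 library (adjusted p up to 0.113) or the variance trend (0.0604). Over both clones *Hdac2* passed in neither knockout, with -0.19 in *Dnttip1* KO (adjusted p = 0.368) and -0.34 in *Elmsan1* KO (adjusted p = 0.0589). In *Elmsan1* KO the limma adjusted p was 0.308 with an estimated correlation within clones, 0.118 with a replicate block and 0.0703 with voom. *Hdac2* passed there with quantile normalization (0.0306), with all 10 libraries in 1 fit (7.66e-05) and without E2G7 replicate 1 (0.0492). Within each knockout the clones differed, by 0.33 between D2A7 and D1E6 (adjusted p = 0.00168) and by -0.22 between E2E8 and E2G7 (adjusted p = 0.00598). In these comparisons 40.8% and 50.7% of all genes tested had changed.

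The ratio of *Hdac1* to *Hdac2* FPKM was 0.735 and 0.801 in WT, 0.951 and 0.921 in D2A7, 1.16 and 1.16 in D1E6, 1.12 and 1.04 in E2E8, and 1.03 and 1.05 in E2G7. All KO libraries lay above WT, through higher *Hdac1* in D2A7, lower *Hdac2* in E2E8 and both in D1E6 and E2G7. The summed FPKM of both was 97.1 and 99.2 in WT and between 83.3 and 108 in KO libraries. Fragments counted to *Gm10093* enter neither the ratio nor the sum, so the size of both holds only for *Hdac1* as counted. The ratio of *Dnttip1* to *Elmsan1* was 1.48 and 1.56 in WT, 0.587 and 0.526 in D2A7, 0.299 and 0.308 in D1E6, 1.32 and 1.31 in E2E8, and 1.65 and 1.63 in E2G7.

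**Figure D4:**
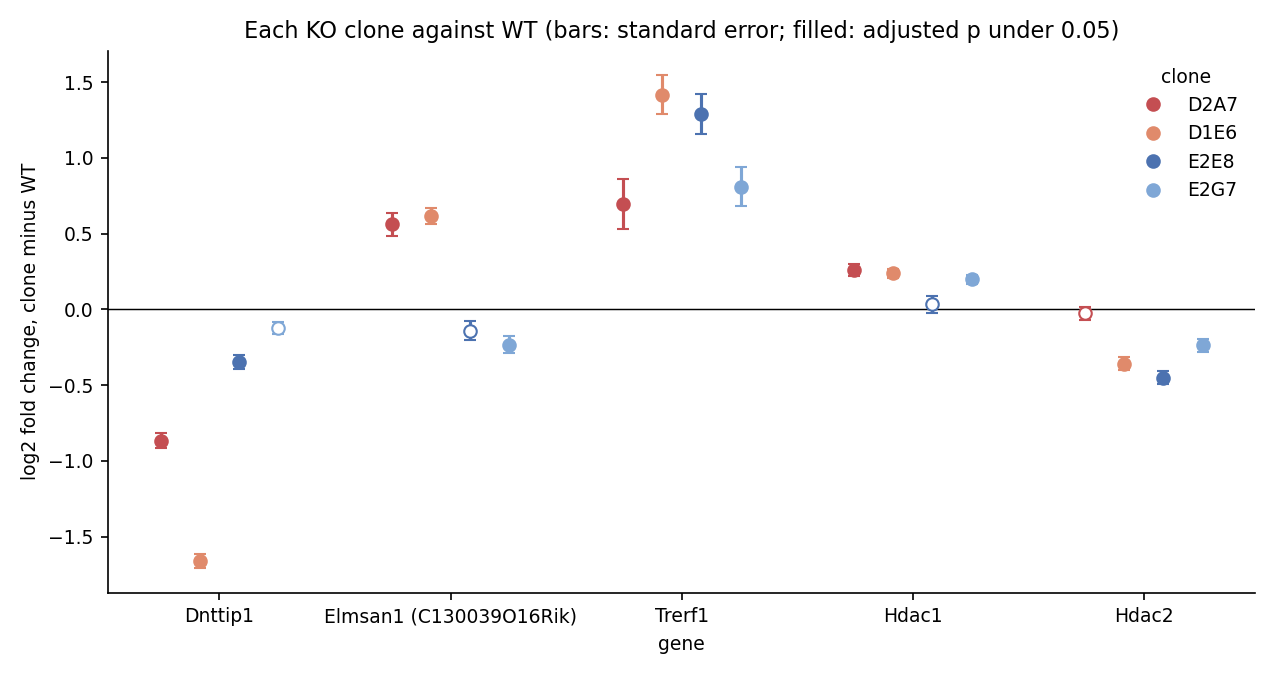
Log2 fold change from WT of the 5 genes tested in each KO clone (2 libraries against 2; bars are standard errors; filled points have an adjusted p under 0.05). *Trerf1* lies between 0.70 and 1.42 in the 4 clones, while *Elmsan1* is above 0 in D2A7 and D1E6 and below 0 in E2E8 and E2G7.

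Taken clone by clone, 16 of the 20 tests of the members against WT passed. This number reads against the 32.7% to 46% of all genes called in these comparisons, and the 4 clones share the same WT libraries.

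Other ELM2-SANT scaffold genes were called about as often as genes in general, which is no result about them. The 2 other class I deacetylase genes and the 3 partner genes are too few to read against the share of all genes called. Of 10 other ELM2-SANT scaffold genes (*Mta1*, *Mta2*, *Mta3*, *Rcor1*, *Rcor2*, *Rcor3*, *Mier1*, *Mier2*, *Mier3* and *Rere*), 0 had risen and 1 had fallen in each knockout, with medians of -0.05 in *Dnttip1* KO and -0.12 in *Elmsan1* KO, beside 0.02 and 0.0030 over all genes tested and 9.47% and 10.5% of all genes called. The gene was *Rcor2*, the CoREST scaffold typical of stem cells, at 32.9 ± 1.79 FPKM (SD, n = 2) in WT and between 19.8 and 23.4 in KO libraries. *Rcor2* had log2 fold changes of -0.62 in *Dnttip1* KO (limma adjusted p = 0.0130, or adjusted p = 0.135 with an estimated correlation) and -0.61 in *Elmsan1* KO (adjusted p = 0.00738, or adjusted p = 0.173 with an estimated correlation). Of the other class I deacetylase genes, *Hdac3* did not pass in either knockout (-0.02 and -0.05). *Hdac8* had fallen in *Dnttip1* KO (-0.69, adjusted p = 0.0353, or adjusted p = 0.389 with an estimated correlation), from 1.52 ± 0.157 FPKM in WT, and was at -0.59 in *Elmsan1* KO (adjusted p = 0.103). Of 3 genes for reported partners of MiDAC, *Ccna2*, *Cdk2* and *Kctd19*, *Cdk2*, the cell cycle kinase that pairs with cyclin A, had risen in *Dnttip1* KO (0.42, adjusted p = 0.0150, or adjusted p = 0.101 with an estimated correlation) and was at 0.28 in *Elmsan1* KO (adjusted p = 0.0912).

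The genes whose levels ran most like each member were taken as the 3 with the highest Pearson correlation of log2(FPKM + 0.1) over the 10 libraries, among 12215 genes whose mean reached 1 FPKM. These correlations are descriptions, since the libraries fall into 5 lines of 2. They were *1700020I14Rik*, *Erbb2ip* and *Scd2* for *Dnttip1* (r from 0.911 to 0.913), *Gm12971*, *mt-Nd6* and *Gm10925* for *Elmsan1* (0.940 to 0.979), *Slc52a2*, *Htra2* and *Lpar5* for *Trerf1* (0.968 to 0.982), *Gmnn*, *Gm10093* and *Usp49* for *Hdac1* (0.945 to 0.964), and *Usp13*, *Umps* and *Akirin1* for *Hdac2* (0.987 to 0.995). *Htra2* and *Lpar5* are on chromosome 6. Among the members themselves, r was most negative for *Trerf1* with *Hdac2* (-0.878) and for *Dnttip1* with *Elmsan1* (-0.865), and no pair exceeded 0.571, the value of *Elmsan1* with *Hdac1*.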

How the data were processed

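The authors deposited FPKM values made from HT-seq gene counts of paired, stranded total RNA reads on NCBIM37. Their own tests used edgeR 3.16.5 and limma in R 3.3.1, per the labels. FPKM multiplied by exon length (GENCODE vM1, which held 97.2% of the 34591 identifiers) gave whole multiples of 1 step, within 0.02, for 98.1% to 98.4% of values under 100 steps, and hence the fragments and library totals, used for depth and for voom. Each library was divided by its median ratio over 11270 genes (factors 0.965 to 1.01). A gene entered a comparison when 2 or more of its libraries reached 0.1 FPKM, and the test ran on log2(FPKM + 0.1), a scale that understates changes of low genes, with limma 3.58.1 in R 4.3.3 (moderated, two-sided, variance trend, Benjamini-Hochberg over all genes). The code was tested on simulated data without differences between clones, so that run does not bear on the correlation within clones. Figures used matplotlib 3.10.9 in Python 3.11.15. All 6 members were named whatever their change. The other genes named are those of the scaffold, deacetylase and partner lists that changed in a knockout, the genes of most similar level, and up to 5 changed neighbours. Members and lists were chosen with earlier results of these data known. Alternatives were the pseudocount (1 or 0.01), the filter (none, or a mean of at least 1 FPKM), quantile normalization, unscaled FPKM, 1 fit of all 10 libraries, no variance trend, voom, a replicate block, correlation within clones and each library left out. Libraries of a line differed by more than counting noise (mean chi-square per gene from 5.39 to 57.6, median from 0.937 to 1.39). Clones are named by code because the labels and the paper number them differently.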

Additional observations from a re-analysis of the deposited data

Results flagged for a closer look

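These results were singled out because a difference between groups was itself tested and passed at an adjusted p under 0.05 (limma). Between the knockouts, *Elmsan1* RNA differed by a log2 fold change of 0.78 (*Dnttip1* KO minus *Elmsan1* KO), beside 0.0341% of genes called. Between the clones of *Dnttip1* KO, D2A7 minus D1E6 was 0.80 for *Dnttip1*, -0.72 for *Trerf1* and 0.33 for *Hdac2*, beside 40.8% of genes called. Between the clones of *Elmsan1* KO, E2E8 minus E2G7 was -0.22 for *Dnttip1*, 0.48 for *Trerf1* and -0.22 for *Hdac2*, beside 50.7% of genes called. In both clone pairs the clone with more *Trerf1* RNA had less *Dnttip1* and less *Hdac2* RNA.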

How the results depend on the processing

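The number of members that changed rests on how clones are treated. In *Dnttip1* KO versus WT it was 3, but 1 without the variance trend, 1 with a replicate block, 5 with all 10 libraries in 1 fit, 0 with an estimated correlation within clones and 0 to 1 without a single library. In *Elmsan1* KO versus WT it was 1, but 0 with no filter, with a mean of at least 1 FPKM, with voom, with a replicate block or with the correlation, 2 with quantile normalization, 5 with all 10 libraries and 0 to 2 without a single library. With a mean of at least 1 FPKM, *Trerf1* was under the filter in *Elmsan1* KO versus WT and was not tested, so that 0 is no failed test. With no filter, *Dnttip1* did not pass in *Dnttip1* KO versus WT (limma adjusted p = 0.0642). Between the knockouts the number was 1, but 4 with all 10 libraries, 0 with a replicate block or the correlation and 0 to 1 without a single library. The numbers between clones (3 and 3) and for the clones against WT (16, with 12 to 17 under the alternatives) stayed within 1.5 times. Between the clones, 40.8% (D2A7 against D1E6) and 50.7% (E2E8 against E2G7) of all genes tested were called. The estimated correlation within clones was 0.704, 0.768 and 0.856. Replicate numbers do not pair the libraries (correlations of replicate differences between lines from -0.139 to 0.192), so a call lost under the block is not a weaker effect.

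Of 460 log2 fold changes of single members under the alternatives other than a left-out library, 419 kept their direction and side of the threshold, as did 168 of 220 with a library left out. The sign turned only where the difference had not passed: *Trerf1* between the knockouts (-0.065 with quantile normalization, -0.13 to 0.17 without a library), *Elmsan1* between E2E8 and E2G7 (-0.018 with quantile normalization), and, without a library, *Elmsan1* (-0.13 to 0.024) and *Hdac1* (-0.011 to 0.053) between D2A7 and D1E6, *Hdac2* in D2A7 versus WT (-0.071 to 0.017) and *Hdac1* in E2E8 versus WT (-0.038 to 0.11). Depth limits *Zfp541*, with 8 fragments at most in a library.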

Other observations

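*Kctd19*, the partner of *Zfp541* in spermatocytes, was chosen here after its values were seen. It was at 0.171 ± 0.00300 FPKM (SD, n = 2) in WT, 0.309 ± 0.0258 in D2A7, 0.261 ± 0.0637 in D1E6 and 0.231 ± 0.0643 in E2G7, but at 1.10 ± 0.0716 in E2E8. E2E8 differed from WT by a log2 fold change of 2.13 (limma adjusted p = 0.00134), while its *Zfp541* count was 3 and 2 fragments. Over both *Elmsan1* KO clones *Kctd19* did not pass (1.20, adjusted p = 0.294).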
